A study of Rattus norvegicus with 4 samples.

Results

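The genes described here are 10 of the 23608 entries of the gene table: the interleukin-1 family ligands Il1a, Il1b and Il33, the receptor antagonist Il1rn, the receptors Il1r1 and Il1rl1, the tumour necrosis factor gene Tnf, and the colony-stimulating factor genes Csf1, Csf2 and Csf3. They were chosen by name, and each symbol was found once. The cells were primary vascular cells, grown as microvessels, of wild-type rats, taken from soft connective tissue under the skin. They were kept on stiff or soft extracellular matrix, in either case with or without A83-01, a compound that blocks TGF-beta receptor kinases. Poly(A) RNA of each group was sequenced as 1 library, so there was 1 library each of stiff with A83-01, stiff, soft with A83-01 and soft. The stated aim was to learn how stiffness and the inhibitor act on microvessels and on the turning of pericytes into myofibroblasts. The sources used here give no stiffness values, inhibitor dose, duration, rat strain or age, and do not say whether the libraries came from separate animals.

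Interleukin-1 alpha and beta are inflammatory cytokines that signal through the receptor encoded by Il1r1 and its accessory chain, and the product of Il1rn occupies that receptor without signalling. Interleukin-33 is held in the nuclei of stromal and endothelial cells and, once released, signals through ST2, the product of Il1rl1, which is also made as a soluble decoy. TNF acts on similar target genes through its own receptors, largely by way of NF-kappaB. The colony-stimulating factors encoded by Csf1, Csf2 and Csf3 (M-CSF, GM-CSF and G-CSF) act on macrophages, on granulocytes and macrophages, and on neutrophils, and vessel wall and stromal cells make them when stimulated by IL-1 or TNF.

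To show the genes' start regions beside their levels, the 100 bases before the annotated start are given for 3 of the cytokine genes that were low on stiff matrix and for both receptor genes, which differed in direction. The sequences are from RefSeq, build GRCr8, and are written 5′ to 3′ on the gene's own strand. Capitals mark TATAAA, the usual TATA box, and TGANTCA, the usual AP-1 site, searched on both strands.
Il1a (chr3:136990018-136990117, minus strand): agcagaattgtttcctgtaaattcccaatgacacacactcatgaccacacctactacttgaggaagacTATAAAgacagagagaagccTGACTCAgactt
Il1b (chr3:137036582-137036681, minus strand): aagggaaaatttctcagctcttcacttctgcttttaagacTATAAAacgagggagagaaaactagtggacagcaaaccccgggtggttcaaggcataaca
Tnf (chr20:3626585-3626684, plus strand): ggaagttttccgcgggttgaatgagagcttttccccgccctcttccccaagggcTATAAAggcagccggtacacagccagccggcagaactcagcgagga
Il1r1 (chr9:50034283-50034382, plus strand): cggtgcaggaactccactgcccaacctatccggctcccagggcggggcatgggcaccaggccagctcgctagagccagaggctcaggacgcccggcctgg
Il1rl1 (chr9:50203538-50203637, plus strand): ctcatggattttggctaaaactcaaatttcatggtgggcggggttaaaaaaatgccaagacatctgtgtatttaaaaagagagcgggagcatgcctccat
TATAAA lay 32 to 27 bases before the start of Il1a, 60 to 55 before that of Il1b and 46 to 41 before that of Tnf. An AP-1 match lay 12 to 6 bases before the Il1a start. The 100 bases shown for Il1r1 and Il1rl1 hold no match to either. The longer windows of 300 bases held further matches to TATAAA on either strand. They lay 246 to 241 bases before the start of Il1rl1 and 237 to 232 before that of Il1a. Others lay 64 to 59 bases before the start of Il1rn and 29 to 24 before that of 1 of the 2 entries of Il33. The windows of Il1r1 and Csf2 held no match to TATAAA. Of 33469 RefSeq windows of 300 bases (250 before to 50 after the start), 14.2% hold TATAAA and 7.33% the AP-1 letters on either strand. The NF-kappaB consensus, found in 7.51% of windows, matched in the window of Il1r1, outside the bases shown, and of no other gene of the group with an entry. Entries were found for 8 of the 10 genes, not for Csf1 and Csf3. Such matches describe letters only.

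On the FPKM scale, which is per transcript length and so allows genes to be compared, Csf1, Il1r1, Il33 and Il1rl1 lay between 17.0 and 119.7 FPKM in all 4 libraries. Il1rn lay between 0.748 and 6.43 FPKM, and Tnf and Csf2 between 0.0254 and 1.19 FPKM. Il1a, Il1b and Csf3 were listed at 0 to 0.184 FPKM on stiff matrix and at 3.40 to 24.3 FPKM on soft matrix. The order of the most abundant genes differed by library. Il33 led in stiff with A83-01 (75.7 FPKM), Il1rl1 in stiff (70.8 FPKM), and Csf1 in soft with A83-01 (119.7 FPKM) and in soft (91.2 FPKM). With 1 library per group there is no spread by which neighbours in this order could be told apart.

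**Figure D1:**
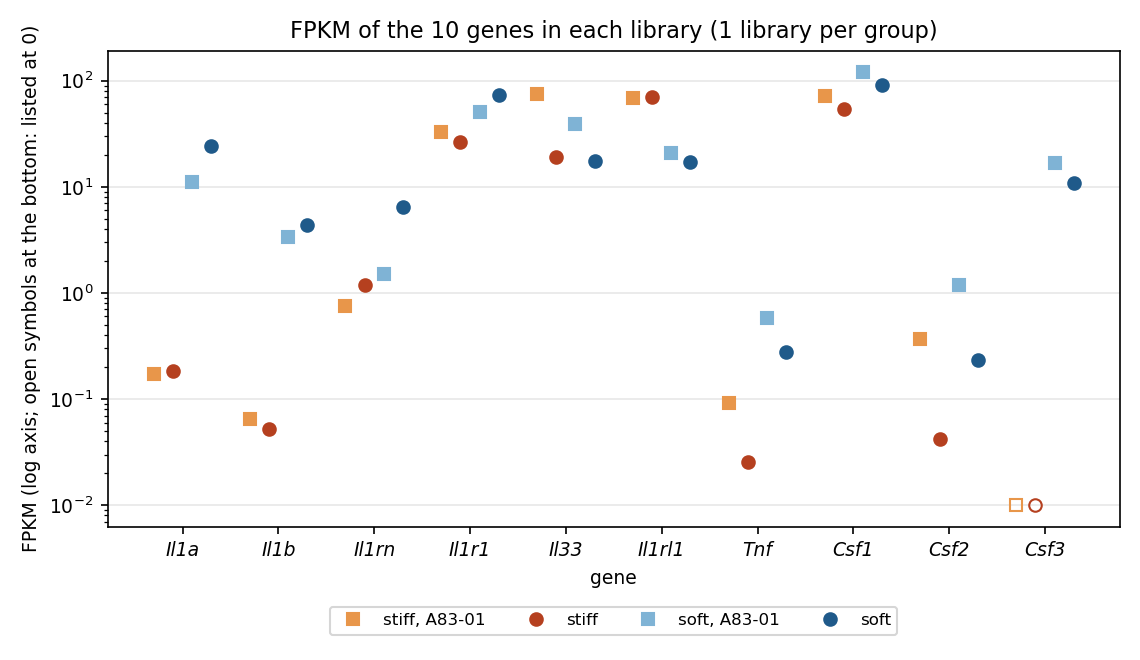
FPKM of the 10 genes on a log axis, with 1 symbol per library (squares with A83-01, circles without, orange and red for stiff, blue for soft). Il1a, Il1b and Csf3 lie low in both stiff libraries, Il1rl1 lies high in them, and Csf3 is listed at 0 there (open symbols).

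Totals were 32271844 to 33416200 counts per library. Counts were scaled to CPM, the count relative to the scaled library total, with TMM factors of 0.876 to 1.07, the lowest that of stiff, where Col1a1 alone held 6.09% of counts against 1.82% to 4.05% elsewhere. A count of 3 corresponded to 0.0842 to 0.103 CPM. Markers of the labelled vascular cells were present: summed over 10 endothelial genes there were 2515, 1452, 1866 and 1840 CPM, and over 9 pericyte and mural genes 4465, 3625, 2067 and 2613 CPM, in stiff with A83-01, stiff, soft with A83-01 and soft. Fibroblast markers, 6 genes that include Col1a1, summed to far more, 27421, 74017, 43166 and 54367 CPM in the same order. In the stiffness test described below, Vwf and Plvap fell among the 10 endothelial genes and 8 did not pass (list median log2 difference 0.13). Of 8 tested pericyte and mural genes, Rgs5 and Des rose on stiff matrix and 6 did not pass (list median 0.66). Over all genes tested, 3.29% were lower and 2.35% higher. Bulk RNA cannot tell fewer cells of a type from less RNA per cell. Both stiff libraries are named in another form than both soft libraries, so stiffness and a separate preparation cannot be told apart. Differences between 2 libraries carry 95% counting intervals, which cover counting error only and say nothing of replicate spread.

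Both stiff libraries were set against both soft ones in edgeR's quasi-likelihood test, with the inhibitor as a second term and 1 residual degree of freedom. Benjamini-Hochberg adjustment ran over the 13634 genes that reached 1 CPM in at least 1 library. Of the 10 genes, 9 reached that minimum and Csf2 did not. Il1a, Il1b, Tnf and Csf3 reached it through soft libraries alone, so they could only be kept by being higher there. Il1a, Il1b and Csf3 fell and Il1rl1 rose on stiff matrix, 3 and 1 of the 9. Over all genes tested, 5.64% changed, 3.29% lower and 2.35% higher. At an unadjusted p of at most 0.05, 2 of the 9 were higher and 7 lower, while 25.3% of all genes passed. Without the inhibitor term, which leaves fewer calls in all, Il1b alone passed, and adjusted p was 0.0548 for Il1a, 0.0505 for Csf3 and 0.0648 for Il1rl1. These p-values rest on 1 residual degree of freedom per gene, moderated by the spread pooled over all genes tested. That spread comes from the 4 libraries alone, includes no replicate libraries and may be technical. A stiffness response that depends on the inhibitor counts as spread.

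Among the IL-1 ligands, Il1a had 9 counts in stiff with A83-01 and 10 in stiff, against 521 in soft with A83-01 and 1089 in soft, or 0.252 and 0.344 CPM against 15.5 and 32.5 CPM. Both stiff libraries lay far below both soft libraries, though above the count of 3 taken as the floor. Il1a was 80.5-fold lower (51.2 to 198) in stiff than in soft, and 49.8-fold lower (32.2 to 135) in stiff with A83-01 than in soft with A83-01. Its fitted log2 difference was −6.26 with an SE of 0.266, and adjusted p was 0.00452 in the quasi-likelihood test. Il1b, whose product needs cleavage to become active, had 4 counts in each stiff library, against 193 in soft with A83-01 and 245 in soft. It was 37.2-fold lower (20.5 to 197) in stiff than in soft, and 33.7-fold lower (19.7 to 190) with the inhibitor in both. In the same quasi-likelihood test its log2 difference was −5.66 (SE 0.388) with an adjusted p of 0.00846. Il1a, Il1b and Il1rn all lie on chromosome 3. The bases before their starts begin at positions 136990018, 137036582 and 27520222, so Il1rn lies far from Il1a and Il1b.

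Il1rn, the antagonist, was also lowest on stiff matrix, but by less. It had 64 counts (1.80 CPM) in stiff with A83-01 and 101 (3.47 CPM) in stiff, against 125 (3.73 CPM) in soft with A83-01 and 529 (15.8 CPM) in soft. The soft library stood apart, while stiff and soft with A83-01 lay side by side. Il1rn was 4.49-fold lower (3.67 to 5.68) in stiff than in soft and 2.04-fold lower (1.53 to 2.85) with A83-01 in both. The fitted log2 difference was −1.65 (SE 0.345, adjusted p = 0.0686 by the quasi-likelihood test), which did not pass, and DESeq2 (adjusted p = 0.00773) and limma-voom (adjusted p = 0.0409) placed it below the threshold. Per transcript length, Il1a exceeded Il1rn on soft matrix, by 7.40-fold with A83-01 and 3.79-fold without. On stiff matrix Il1rn exceeded Il1a, by 4.31-fold with A83-01 and 6.46-fold without, ratios that rest on 9 and 10 counts of Il1a.

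The receptor genes Il1r1 and Il1rl1 differed in direction. Il1r1 had 124 CPM in stiff with A83-01 and 122 CPM in stiff, against 203 CPM in soft with A83-01 and 288 CPM in soft. All 4 values were high, and the stiff ones were the lower. Il1r1 was 2.35-fold lower (2.27 to 2.45) in stiff than in soft and 1.63-fold lower (1.57 to 1.70) with A83-01 in both. Its fitted log2 difference of −0.97 (SE 0.188) did not pass by the quasi-likelihood test (adjusted p = 0.0584) and passed by DESeq2 (adjusted p = 0.000826) and limma-voom (adjusted p = 0.0391). Il1rl1 had 205 CPM in stiff with A83-01 and 258 CPM in stiff, against 64.6 CPM in soft with A83-01 and 52.4 CPM in soft. It was 4.93-fold higher (4.68 to 5.20) in stiff than in soft and 3.18-fold higher (3.03 to 3.34) with A83-01 in both. Its fitted log2 difference was 1.98 with an SE of 0.206, and adjusted p was 0.0168 in the quasi-likelihood test. Counts per gene do not separate the membrane and the soluble form.

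Per transcript length, Il1rl1 stood at 2.11 and 2.69 times the level of Il1r1 in stiff with A83-01 and stiff, whereas Il1r1 stood at 2.45 and 4.27 times the level of Il1rl1 in soft with A83-01 and soft. These genes lie on chromosome 9 among 6 genes of the IL-1 receptor family, in the order Il1r2, Il1r1, Il1rl2, Il1rl1, Il18r1 and Il18rap, with H3f3al3, no member of that family, between Il1r2 and Il1r1. Of the others in the run, the decoy receptor gene Il1r2 had 31 to 54 counts per library. Il1rl2, the receptor gene for interleukin-36, had 330 counts in stiff with A83-01, 973 in stiff, 824 in soft with A83-01 and 981 in soft, so the sole low library was stiff with A83-01. Neither passed for stiffness (adjusted p of 0.920 for Il1r2 and 0.418 for Il1rl2 in the quasi-likelihood test). Il18r1 and Il18rap, which form the interleukin-18 receptor, had 2 to 31 counts and did not reach 1 CPM.

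Il33, the ligand of the Il1rl1 receptor, had 215 CPM in stiff with A83-01 and 67.3 CPM in stiff, against 115 CPM in soft with A83-01 and 51.1 CPM in soft. Stiff and soft values overlapped, since stiff lay below soft with A83-01. Il33 was 1.32-fold higher (1.23 to 1.40) in stiff than in soft and 1.86-fold higher (1.79 to 1.94) with A83-01 in both, and the fitted log2 difference of 0.65 (SE 0.173) did not pass (adjusted p = 0.107, quasi-likelihood test). Per transcript length, the ratio of Il33 to Il1rl1 was 1.10 in stiff with A83-01, 0.272 in stiff, 1.87 in soft with A83-01 and 1.02 in soft. On that scale stiff was the sole library with more Il1rl1 than Il33. Soft was near equality, and by counts it had 1753 of Il1rl1 against 1711 of Il33.

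Tnf was near the limit of detection, with 7 counts in stiff with A83-01 and 2 in stiff, against 40 in soft with A83-01 and 19 in soft. All 4 values were low, and the stiff ones were the lower. Tnf was 4.85-fold lower (1.99 to 73.0) in stiff than in soft and 4.88-fold lower (2.69 to 16.1) with A83-01 in both. The fitted log2 difference of −2.72 (SE 0.684) did not pass (adjusted p = 0.0958, quasi-likelihood test).

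The colony-stimulating factor genes differed in level and in size of difference. Csf3 had 0 counts in both stiff libraries, against 878 in soft with A83-01 and 567 in soft. Set against 3 counts in the stiff library, it was at least 164-fold lower in stiff than in soft and at least 311-fold lower with A83-01 in both. The lower 95% counting limits of these ratios were smaller, 133-fold and 253-fold. The quasi-likelihood test called the fall (adjusted p = 0.00724), and its fitted value is not given because it rests on the prior count. Csf1 had 316 CPM in stiff with A83-01 and 292 CPM in stiff, against 517 CPM in soft with A83-01 and 399 CPM in soft. It was 1.36-fold lower (1.33 to 1.40) in stiff than in soft and 1.64-fold lower (1.60 to 1.68) with A83-01 in both, and the fitted log2 difference of −0.58 (SE 0.174) did not pass (adjusted p = 0.133, quasi-likelihood test). Csf2 had 7 counts in stiff with A83-01 and 1 in stiff, against 22 in soft with A83-01 and 5 in soft, too few for the test. In the fit without a minimum its log2 difference was −1.80 (SE 1.05, adjusted p = 0.408, quasi-likelihood test).

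**Figure D2:**
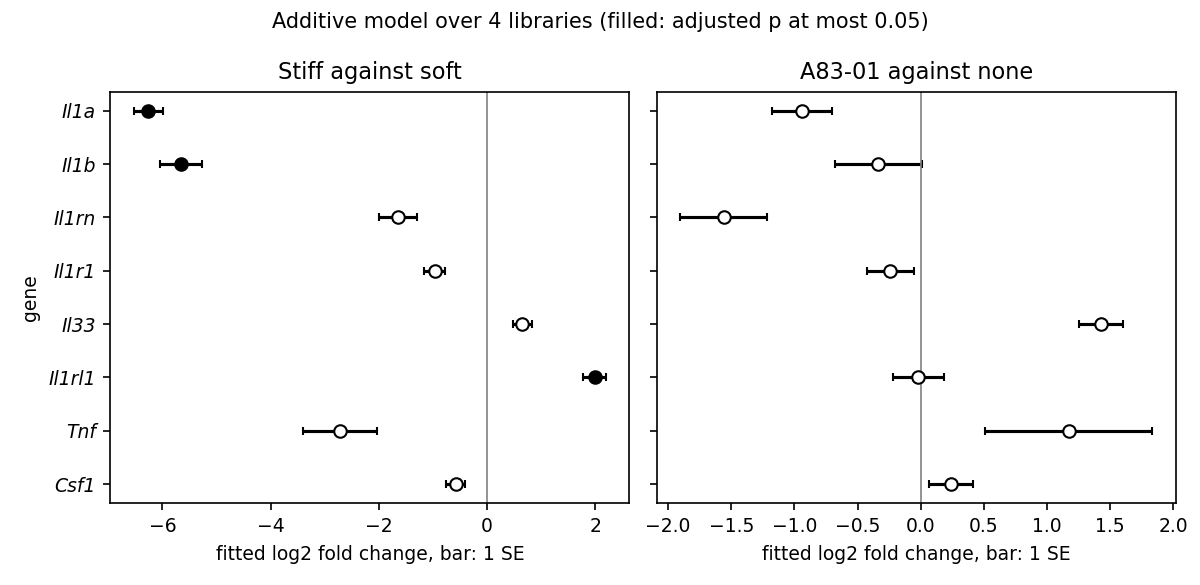
Fitted log2 fold change with its SE for 8 genes, for stiff against soft (left) and A83-01 against none (right), from edgeR's additive model over 4 libraries. Filled points pass the adjusted threshold: Il1a, Il1b and Il1rl1 for stiffness and no gene for A83-01. Csf2 was not tested, and Csf3 is left out since its value depends on the prior count.

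By single pairs of libraries, with 2-fold taken as a ratio of at least 2 whose counting interval excludes equality, 6 of the 9 genes were lower and 1 higher in stiff than in soft, against 8.58% and 5.33% of all genes (13.9% in either direction). With A83-01 in both libraries, 5 were lower and 1 higher, against 6.72% and 6.88% of all genes (13.6% in either direction). Both stiff libraries lay outside the range of both soft libraries for 8 of the 9, and for 53.6% of all genes. Of these 8, 1 was higher and 7 were lower on stiff matrix, against 26.5% and 27.1% of all genes. Il33 was the exception. Il1rn was separated by little, with 3.47 CPM in stiff against 3.73 CPM in soft with A83-01. Among the lower genes in each of these comparisons were Il1a, Il1b, Tnf and Csf3, the 4 kept through soft libraries alone. The filter thus favoured their direction, and these counts are not independent support.

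A83-01 was tested in the same model. In edgeR's quasi-likelihood test 0 of the 9 genes passed after adjustment, and 0.044% of all genes did, all lower. At an unadjusted p of at most 0.05, 1 was higher and 2 lower, against 13.3% of all genes in either direction. DESeq2 called 2, Il33 (higher) and Il1rn (lower), and limma-voom called 0. In the inhibitor comparisons each matrix uses its own libraries, so both responses are given.

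Il33 was 3.19-fold higher (3.04 to 3.36) in stiff with A83-01 than in stiff and 2.26-fold higher (2.13 to 2.39) in soft with A83-01 than in soft. Its counts were 7656 and 1955 in stiff with and without the inhibitor, and 3866 and 1711 in soft with and without it. Both libraries with A83-01 lay above both without it, as they did for 16.7% of all genes. None of the 9 genes was lower in that way, against 15.6% of all genes. The fitted log2 difference was 1.43 (SE 0.176, adjusted p = 0.108, quasi-likelihood test). Il33 was the sole gene of the 9 past 2-fold for A83-01 on stiff matrix, where 7.8% of all genes were higher and 4.47% lower, 12.3% in all. On soft matrix Il33 was higher and Il1a and Il1rn were lower past 2-fold, where 2.18% of all genes were higher and 2.44% lower, 4.61% in all.

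Il1rn was 1.90-fold lower (1.40 to 2.69) in stiff with A83-01 than in stiff and 4.18-fold lower (3.48 to 5.19) in soft with A83-01 than in soft. The fitted log2 difference was −1.56 (SE 0.345, adjusted p = 0.210, quasi-likelihood test). Il1a was 2.09-fold lower (1.88 to 2.33) in soft with A83-01 than in soft. On stiff matrix its 9 and 10 counts, with and without A83-01, gave a 1.29-fold lower ratio with an interval of 0.498 to 3.79. Il1b was 1.27-fold lower (1.05 to 1.54) with the inhibitor on soft matrix. Its 4 counts in each stiff library gave a 1.15-fold lower ratio with an interval of 0.228 to 6.58.

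Csf3 was 1.55-fold higher (1.39 to 1.72) in soft with A83-01 than in soft, and had 0 counts in stiff with A83-01 and in stiff, so the inhibitor gave no detectable Csf3 on stiff matrix at this depth. Csf1 was 1.30-fold higher (1.27 to 1.33) with A83-01 on soft matrix and 1.08-fold higher (1.05 to 1.11) on stiff matrix. Csf2 was 3.41-fold higher (1.62 to 14.9) with A83-01 on soft matrix, from 22 and 5 counts. Tnf was 1.997-fold higher (1.19 to 3.84) there, from 40 and 19 counts. On stiff matrix the intervals of Csf2 and Tnf included equality.

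Il1r1 was 1.42-fold lower (1.37 to 1.46) in soft with A83-01 than in soft and 1.02-fold higher (0.973 to 1.06) in stiff with A83-01 than in stiff. Il1rl1 was 1.23-fold higher (1.16 to 1.31) with the inhibitor on soft matrix and 1.26-fold lower (1.22 to 1.30) on stiff matrix. The difference between these matrix-specific responses was not tested, since the design leaves no residual for it.

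**Figure D3:**
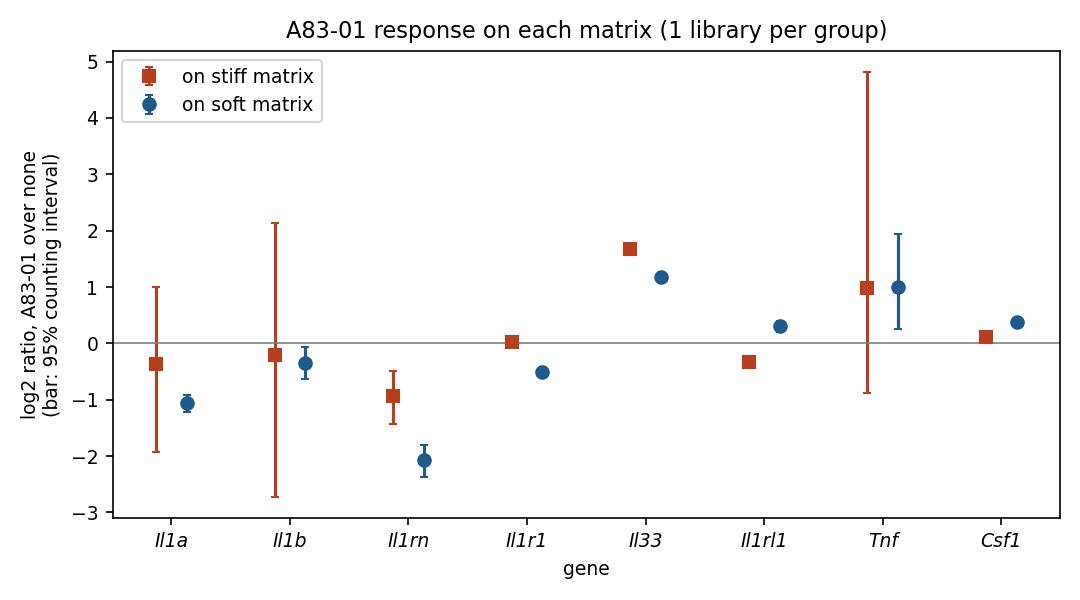
Log2 ratio of A83-01 over none on stiff matrix (red squares) and soft matrix (blue circles) for 8 genes, with 95% counting intervals (1 library per group). Il33 is above 0 and Il1rn below 0 on both matrices, Il1rl1 lies on opposite sides of 0, and the wide bars of Il1a, Il1b and Tnf on stiff matrix come from counts of 10 or fewer.

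The further genes of the pathway were described by step. Of 6 other IL-1 family ligand genes, 4 had 0 counts in every library and none reached 1 CPM. Il18, the most counted, had 11 in stiff with A83-01 and 9 in stiff, against 19 in each soft library. Of 9 further receptor and binding-protein genes 5 were tested, and edgeR's quasi-likelihood test called 0, with 0 at an unadjusted p of at most 0.05 and 0 by DESeq2 and limma-voom. The shared accessory chain gene Il1rap stood at 21.5 CPM in stiff with A83-01 and 26.3 CPM in stiff, against 16.7 CPM in soft with A83-01 and 20.8 CPM in soft.

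Of 8 tested genes of IL-1 processing, the quasi-likelihood test called 0, and DESeq2 and limma-voom called 0. Unadjusted, 2 were higher and 2 lower on stiff matrix, while 25.3% of all genes passed. The 2 higher ones were the sensor gene Nlrp1a and the adaptor gene Pycard. Their log2 differences were 0.77 (SE 0.166, adjusted p = 0.0725) and 1.18 (SE 0.404, adjusted p = 0.164) in the quasi-likelihood test. The 2 lower ones, Nlrp3 and Nlrc4, reached 1 CPM through soft libraries alone and could only be kept by being higher there. Casp1, the protease that cleaves the interleukin-1 beta precursor, stood at 18.1 CPM in stiff with A83-01 and 10.3 CPM in stiff, against 19.8 CPM in soft with A83-01 and 16.0 CPM in soft. Nlrp3, the sensor of the best known inflammasome, had 17 and 21 counts in stiff with A83-01 and stiff, against 55 and 59 in soft with A83-01 and soft (log2 difference −1.52, SE 0.458, adjusted p = 0.133 in the quasi-likelihood test).

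In the relay from receptor to NF-kappaB, 1 of 19 genes rose and 2 fell on stiff matrix, with a list median of −0.04 against 0.01 for all genes tested. Over all genes tested, 2.35% rose and 3.29% fell. Irak3, which restrains IL-1 receptor signalling, fell by 2.54 (SE 0.164), and the kinase gene Map3k8 fell by 2.05 (SE 0.186). The adaptor gene Traf5 rose by 1.29 (SE 0.177). The core relay genes Myd88, Irak1, Irak4 and Traf6 did not pass, with log2 differences of −0.13, 0.04, −0.26 and 0.52. Among TNF receptor and processing genes, 3 of 10 fell (list median −0.12), while 3.29% of all genes fell. The apoptosis inhibitor gene Birc3 fell by 1.97 (SE 0.188), the TNF-shedding protease gene Adam17 by 0.80 (SE 0.130) and the second TNF receptor gene, Tnfrsf1b, by 1.43 (SE 0.254). The main receptor gene Tnfrsf1a stood at 365 CPM in stiff with A83-01 and 341 CPM in stiff, against 324 CPM in soft with A83-01 and 292 CPM in soft, and did not pass.

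For the receptors and relay of the colony-stimulating factors, 0 of 11 tested genes passed by the quasi-likelihood test (list median −0.37). Unadjusted, 0 were higher and 4 lower, while 25.3% of all genes passed. DESeq2 and limma-voom each called 1 lower. Csf1r, the receptor gene of M-CSF, stood at 6.85 CPM in stiff with A83-01 and 3.96 CPM in stiff, against 9.34 CPM in soft with A83-01 and 9.29 CPM in soft. Csf3r, the G-CSF receptor gene, had 0 to 5 counts per library.

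Genes known to respond to IL-1 and TNF fell on stiff matrix in 20 of 22 cases and rose in 0 (list median −3.14 against 0.01 for all genes tested), while 3.29% of all genes fell. Of these 22, 4 (Cxcl2, Cxcl3, Cxcl6 and Sele) reached 1 CPM through soft libraries alone and had to be higher there. By smallest p the list was led by the chemokine genes Cxcl6, which fell by 7.03 (SE 0.173), and Cxcl3, which fell by 7.80 (SE 0.209), and by the RNase gene Zc3h12a, which fell by 2.78 (SE 0.130), and the chemokine gene Ccl7, which fell by 2.91 (SE 0.164). Vcam1 and Sele did not pass. For A83-01 the quasi-likelihood test called 0 of the 22, and 0.044% of all genes. Unadjusted, 2 were higher and 2 lower, while 13.3% of all genes passed. DESeq2 called 1 higher and 1 lower, against 463 of the 13634 genes tested. With limma-voom 0 were called, against 3 of all genes. The list was chosen with earlier results of these libraries known, so the count is not independent support.

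**Figure D4:**
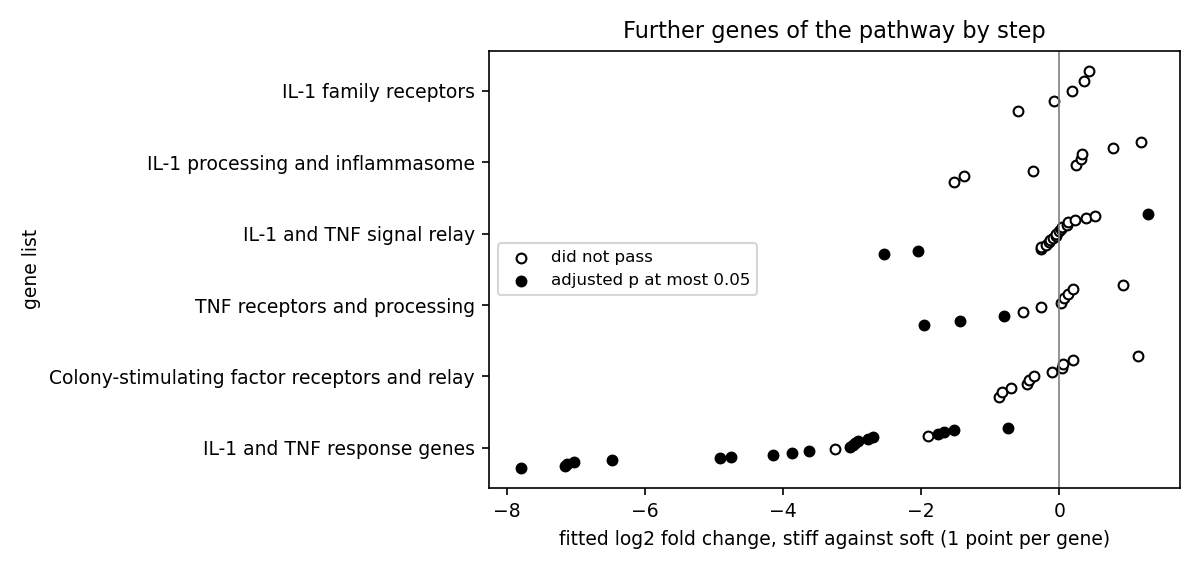
Fitted log2 fold change of stiff against soft for the tested genes of 6 pathway lists, 1 point per gene, filled where the adjusted p passes. The 20 filled points of the IL-1 and TNF response list lie below 0, as do its 2 open points (Vcam1 and Sele). The medians of the other lists run from −0.37 to 0.27, with genes well to either side, such as Nlrp3 (−1.52) and Pycard (1.18).

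Of 12 leukocyte and macrophage markers 10 were tested, with a list median of −0.78 against 0.01 for all genes tested. At an unadjusted p of at most 0.05 in the quasi-likelihood test, 7 were lower and 1 higher on stiff matrix. Of all genes, 25.3% passed unadjusted. After adjustment 2 fell (Adgre1 and Cd74), 1 rose (Lyz2, log2 difference 3.28, SE 0.380) and 7 did not pass, against 3.29% of all genes lower and 2.35% higher. Cd74 reached 1 CPM through soft libraries alone. Their summed level was 91.5 CPM in stiff with A83-01 and 82.6 CPM in stiff, against 175 CPM in soft with A83-01 and 125 CPM in soft. Adgre1, which marks macrophages, had 85 and 13 counts in stiff with A83-01 and stiff, against 1254 and 820 in soft with A83-01 and soft. Cd74 had 0 counts in stiff. Ptprc, the common leukocyte marker, had 43 and 23 counts in stiff with A83-01 and stiff, against 126 and 97 in soft with A83-01 and soft, and did not pass (adjusted p = 0.0622, quasi-likelihood test). The part of these cells in the levels of Il1a, Il1b, Tnf and Csf3 was not tested. Of other blood lineages, the neutrophil markers Mpo and Cxcr2, the mast cell markers Ms4a2, Tpsab1 and Cma1 and the T cell markers Cd3e, Cd3d and Cd3g had 0 counts in all 4 libraries, and the 6 neutrophil markers summed to 0.138 to 1.18 CPM. The mast cell list also holds Hdc, Cpa3 and Kit, which had counts in every library and are described further below. Cd4, which macrophages also express in rats, had 165 and 57 counts in stiff with A83-01 and stiff, against 115 and 91 in soft with A83-01 and soft. Cd8a had 57 and 28 counts in stiff with A83-01 and stiff, against 0 and 8 in soft with A83-01 and soft, and did not pass (adjusted p = 0.156, quasi-likelihood test). Of 6 tested fibroblast markers 2 fell and 0 rose (list median −0.15): Pdgfra fell by 2.18 (SE 0.216) and Dcn fell by 2.53 (SE 0.404) in the quasi-likelihood test. Thy1 (0.60), Col1a1 (0.47) and Fbln1 (0.43) had log2 differences above 0 and Lum (−0.72) below 0, and none of these passed. The part of fibroblasts was not tested either.

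The genes most alike in pattern were found by the distance between log2 CPM values centred on the gene's mean over the 4 libraries, for the 8 genes with at least 100 counts in all. Nearest to Il1a were LOC24906 (distance 0.825), the chemokine gene Ccl22 (0.830) and Il1b (0.990). Nearest to Il1b were the chemokine gene Ccl4 (0.468), the assembled transcript MSTRG.11840 (0.521) and the chemokine gene Ccl3 (0.676). Csf3 had no close match: Cxcl3 (1.07), Cxcl6 (1.56) and the siderophore-binding Lcn2 (1.98) came first. Il1rn was nearest to Tfec (0.410), a transcription factor gene, to the endothelial Vwf (0.505) and to Ltbp2 (0.574). Among the nearest to Il1rl1 were Itm2a (0.193) and Grb14 (0.199). Il33 was nearest to Necab2 (0.219), Mbnl3 (0.220) and Psd3 (0.221). Il1r1 was nearest to MSTRG.16936 (0.0869), AABR07030603.1 (0.0989) and LOC257650 (0.104), and among the nearest to Csf1 were MSTRG.14863 (0.0523) and the cathepsin gene Ctsz (0.0626). With 4 libraries these are descriptions.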

How the data were processed

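The authors deposited a table of raw read counts and a table of FPKM values (scaled for transcript length and library size) per gene, with 1 column per library. Per the submitters' processing notes, HISAT2, edgeR and Rnor_6.0 were used; the read counter was not given in the sources used here, and no strand-specific protocol is described, so overlapping genes on opposite strands may not be separated. Libraries were grouped by title, and no 2 were identical. Members and lists were chosen with earlier results of these data known.

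TMM factors were computed over all genes with R 4.3.3 and edgeR 4.0.16. Genes with at least 1 normalised CPM in at least 1 library were tested with edgeR's quasi-likelihood method, with additive terms for matrix and A83-01 (Benjamini-Hochberg, threshold 0.05). The SE is the log2 fold change over the square root of F. Pair ratios used a prior count of 2 and 95% Clopper-Pearson intervals of the count ratio; against 0 counts, a floor of 3 counts per library gave a lower bound. FPKM served to compare genes and, with 0.1 added, for limma 3.58.1. Alternatives also used DESeq2 1.42.0. All 10 members are named; of each list, up to 4 genes past the threshold by smallest p are named, with genes that define a step. The 3 genes most alike in pattern are named for each member with at least 100 counts, except 2 that are not reported here.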

Additional observations from a re-analysis of the deposited data

Results flagged for a closer look

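For Il1rl1 the single library pairs moved in opposite directions with A83-01 on the 2 matrices: 1.26-fold lower on stiff and 1.23-fold higher on soft, a difference of −0.63 on the log2 scale (counting interval −0.735 to −0.531). It was picked out because both counting intervals exclude equality on opposite sides. The difference was not tested, since each group is 1 library. With total-count scaling the response on stiff matrix was −0.05 on the log2 scale and that on soft 0.31.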

How the results depend on the processing

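Low counts limit the values of Tnf and Csf2 and the stiff values of Il1a, Il1b and Csf3. For the other genes, the limit is that each group is 1 library. No paired analysis was possible because each group has 1 library and so no second replicate number; the additive model already sets libraries against each other within each level of the other factor. Leaving out a library leaves no residual degree of freedom and so no test. The fitted log2 difference of stiff against soft then ranged from −6.55 to −5.92 for Il1a, −5.69 to −5.63 for Il1b, −2.18 to −1.05 for Il1rn, −2.98 to −2.58 for Tnf and 0.40 to 0.90 for Il33. For A83-01 it ranged from −2.08 to −0.95 for Il1rn, −1.06 to −0.44 for Il1a and 1.17 to 1.68 for Il33. Each such fit rests on a single library pair for the factor in question. These ranges therefore restate the pair ratios given above, apart from the prior count, and are no separate check.

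For stiffness, 4 members were called, against 2 where every library needed at least 10 counts (Il1a, Il1b and Csf3 are then not tested, and Il1r1 passes), 8 by total-count scaling, 8 by limma on log2(FPKM + 0.1) and 1 (Il1b) without the inhibitor term. The other alternatives gave 4 to 6. Over all genes 769 were called, against 1311 by DESeq2, 1791 by limma on FPKM, 1758 by total-count scaling and 30 without the inhibitor term. For A83-01, 0 members were called, against 2 each (Il33 and Il1rn) by DESeq2, limma on FPKM and total-count scaling. Over all genes 6 were called, against 463 by DESeq2, 931 by limma on FPKM, 3 by limma-voom, 27 without a minimum, 835 by total-count scaling, 0 with DESeq2's size factors and 0 without the stiffness term. Past 2-fold for A83-01 on stiff matrix there was 1 member, against 2 by FPKM ratios. On soft matrix there were 3, against 4 with a prior count of 0.5, by FPKM ratios and by total-count scaling. Tnf was then past 2-fold as well (log2 ratios of 1.05, 1.07 and 1.01). The causes were not tested.

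Total-count scaling moved the median of all genes by −0.23 (log2) in stiff against soft and by 0.28 in stiff with A83-01 against stiff. The share of higher genes past 2-fold was then 24.8% in place of 38.3%, and 80.8% in place of 63.6%. Under it Il33 was 0.16 and Csf1 −0.68 in stiff against soft, and Il1r1 was 0.31 and Csf1 0.39 in stiff with A83-01 against stiff. The fitted A83-01 difference of Il1rl1 (−0.02) changed sign with total-count scaling (0.13), limma on FPKM (0.13) and limma-voom (0.023).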

Other observations

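Il34 encodes a further ligand of the M-CSF receptor. It had 2653 counts in stiff with A83-01 and 419 in stiff, against 568 in soft with A83-01 and 450 in soft, so stiff with A83-01 stood apart. Il34 did not pass for stiffness (log2 difference 1.14, SE 0.510, adjusted p = 0.249) or for A83-01 (1.36, SE 0.511, adjusted p = 0.367) in edgeR's quasi-likelihood test. It was singled out after its values were seen.

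Hdc, the gene of the histamine-forming enzyme and a mast cell marker, had 23 counts in stiff with A83-01 and 4 in stiff, against 510 in soft with A83-01 and 183 in soft. It fell by 4.78 on stiff matrix (SE 0.328, adjusted p = 0.00846, quasi-likelihood test), but reached 1 CPM through soft libraries alone. Cpa3, another mast cell marker, had 7 and 2 counts in stiff with A83-01 and stiff, against 28 and 24 in soft with A83-01 and soft, while Ms4a2, Tpsab1 and Cma1 had 0 counts in every library. Kit, which other cells also express, had 3458 counts in stiff with A83-01 and 1671 in stiff, against 1683 in soft with A83-01 and 1694 in soft.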
